A study of Mus musculus with 24 samples.

Results

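The distal mandible, the tip of the lower jaw, was set against the distal maxilla, the tip of the upper jaw, in control mouse embryos at embryonic day 14.5. The comparison rests on 6 of the 24 arrays of the series, chosen by label: 3 of control distal mandible and 3 of control distal maxilla. The series crossed Wnt1-Cre;Tgfbr2 fl/+ mice with Tgfbr2 fl/fl mice on a C57B6 background, and each mandible and maxilla was cut into a distal and a proximal end. Wnt1-Cre acts in neural crest cells, and Tgfbr2 encodes the type II TGF-beta receptor. Mutant embryos were recognised by their cleft palate and calvarial defect, and controls were their littermates, labelled only as control, and the labels do not name the floxed and Cre alleles each control carried. The groups drawn on below are therefore control distal mandible, control distal maxilla, control proximal mandible, control proximal maxilla, mutant distal mandible and mutant distal maxilla, with 3 arrays each. The labels do not say whether the 3 samples of a group are separate embryos, litters or pools. All p-values rest on the spread between samples within groups. It was estimated over all 24 arrays in 8 groups, which also include the mutant proximal ends. Levels of Xist and of Y-linked genes differed between the arrays of each jaw, so that the 3 are not repeats of 1 sample.

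Both jaws grow from the first pharyngeal arch and are built largely by neural crest cells. Endothelin signalling in the lower part of the arch turns on Dlx5, Dlx6 and Hand2 and gives that part its mandibular identity, while the upper part, which lacks this signal, forms the maxilla. The upper jaw also borders the nasal cavity, the whisker pad and the palate, and the lower jaw carries the tongue, whose muscle cells come from elsewhere in the embryo.

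Expression was measured on an Affymetrix array and is given as a log2 level per gene. A difference is the mean of the 3 mandible arrays minus the mean of the 3 maxilla arrays, ± the standard error of the fit, in log2 units, so that 1 unit is a 2-fold change. Adjusted p-values come from limma's moderated test, corrected over all 12811 genes by the Benjamini-Hochberg method, and a gene is said to have risen or fallen in the mandible when that value was under 0.05. Array medians lay between 6.93 and 7.0, and a gene whose 3 values in a group all lay below the median of their arrays is called dim there. The difference of such a gene may be understated, since background can make up much of a dim signal. Background was not measured here. The number of arrays limits the precision, and the median standard error of a difference was 0.106.

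Levels of tissue markers differed between the pieces, and the labels do not say which attached tissues each piece held. The 36 skeletal muscle genes of a marker list had mean levels of 9.59 to 10.4 in the mandible arrays, against 6.8 to 7.51 in the maxilla arrays. The 17 olfactory and nasal sensory markers had mean levels of 7.6 to 7.8 in the mandible and 8.52 to 9.37 in the maxilla. Control distal maxilla 2 stood apart from its group mates, from which it differed by a root mean square of 0.412 and 0.353 over genes, against 0.193 between maxilla 1 and maxilla 3 and 0.212 to 0.312 between mandible arrays. It was lower in nasal and nerve markers than the other maxilla arrays and still above every mandible array in their list means. Results that rest on these markers are given with and without it. Mineralising bone markers, which the label of the tissue as bone calls for, were high on all 6 arrays, with a mean level of 11.3 in each mandible array and 11.1 to 11.7 in the maxilla arrays over 17 genes.

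Sequences from RefSeq (build GRCm38.p6) show the 250 bases before the annotated start of 5 genes from the groups described below. Each of these 5 windows holds the motif named for its gene, and no window without a match is shown. Hand2 is shown as the gene with the largest rise in the mandible, with the homeodomain core TAATTA in capitals. Acta1 and Ckm stand for the muscle genes, with the E-box CAGCTG in capitals, and Dynlrb2 and Ccno for genes of motile cilia, with the X-box part GTTGCC in capitals. Each motif was searched on both strands, separately from the others, and only the motif named for a gene is in capitals, so that a window may hold another of the 3 in lower case.
Hand2 chr8:57320733-57320982, plus strand: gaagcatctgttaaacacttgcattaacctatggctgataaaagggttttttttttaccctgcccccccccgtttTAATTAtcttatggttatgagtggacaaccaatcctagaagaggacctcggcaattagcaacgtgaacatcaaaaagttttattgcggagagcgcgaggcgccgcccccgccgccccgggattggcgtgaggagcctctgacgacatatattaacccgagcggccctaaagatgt
Acta1 chr8:123894776-123895025, minus strand: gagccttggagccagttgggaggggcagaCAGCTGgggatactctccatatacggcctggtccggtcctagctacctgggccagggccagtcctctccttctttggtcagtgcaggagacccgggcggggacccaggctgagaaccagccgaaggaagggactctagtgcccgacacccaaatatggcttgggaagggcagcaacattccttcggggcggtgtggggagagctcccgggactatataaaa
Ckm chr7:19410844-19411093, plus strand: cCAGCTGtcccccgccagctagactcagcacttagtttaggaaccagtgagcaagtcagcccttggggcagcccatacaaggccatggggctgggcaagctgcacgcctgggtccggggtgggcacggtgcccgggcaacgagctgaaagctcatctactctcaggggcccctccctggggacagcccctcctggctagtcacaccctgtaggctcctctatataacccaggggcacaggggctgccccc
Dynlrb2 chr8:116504765-116505014, plus strand: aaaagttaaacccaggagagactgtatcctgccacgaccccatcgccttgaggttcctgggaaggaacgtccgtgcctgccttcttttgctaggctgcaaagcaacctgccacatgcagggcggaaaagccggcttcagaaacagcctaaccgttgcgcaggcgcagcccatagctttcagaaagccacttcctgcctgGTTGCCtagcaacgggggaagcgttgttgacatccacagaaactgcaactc
Ccno chr13:112987552-112987801, plus strand: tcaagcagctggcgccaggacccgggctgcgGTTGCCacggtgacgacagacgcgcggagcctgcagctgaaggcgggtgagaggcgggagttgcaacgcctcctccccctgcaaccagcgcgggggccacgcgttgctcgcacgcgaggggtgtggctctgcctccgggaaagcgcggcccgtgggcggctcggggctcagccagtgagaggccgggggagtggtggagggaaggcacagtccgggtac
CAGCTG stood in 15 of the 30 muscle genes with a window (50%), against 13% of all 32851 windows and 14.4% of the 10284 tested genes with a window. A gene counted when any of its windows held the motif. GTTGCC stood in 2 of 7 motile cilia genes with a window, against 10.4% of all windows and 12.5% of tested genes. TAATTA stood in 3 of 9 mandibular identity genes with a window and 0 of 11 maxillary identity genes. It stood in 4.84% of all windows and 3.08% of tested genes with a window. These matches describe the letters of the windows and were not tested.

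Of 12811 genes, 1129 (8.81%) differed between the distal ends of the jaws in controls. In the mandible 395 genes rose (3.08%) and 734 fell (5.73%). A change of at least 2-fold was found for 150 of the rises and 262 of the falls. The 3 mandible values lay wholly above or below the 3 maxilla values in 1117 of the 1129 genes, against 33.8% of all genes tested. The number of calls depended on single arrays: it was 414 without mandible 1, 702 without mandible 2, 626 without mandible 3, 465 without maxilla 1, 1109 without maxilla 2 and 389 without maxilla 3. After quantile normalization of the deposited values, 1497 genes were called and the split turned to 799 rises and 698 falls, so that 53.4% were rises, against 35.0% on the values as deposited.

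**Figure D1:**
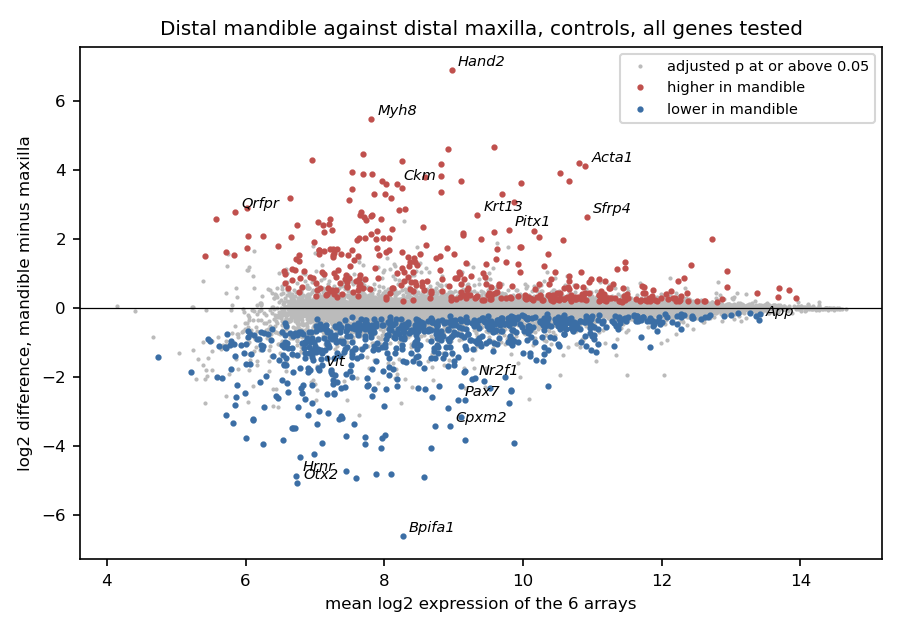
Log2 difference, control distal mandible minus control distal maxilla (vertical axis), against the mean log2 level of the 6 arrays (horizontal axis) for the 12811 genes tested. Red points are the 395 genes that rose in the mandible, blue points the 734 that fell and grey points the others; Hand2 lies at the top with 6.88 and Bpifa1 at the bottom with −6.6.

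Hand2, a basic helix-loop-helix factor of the mandibular arch that acts downstream of endothelin signalling, separated the jaws most. Its levels were 12.56, 12.49 and 12.19 in the mandible and 5.40, 5.56 and 5.63 in the maxilla. All mandible arrays were bright and all maxilla arrays were dim. The difference was 6.88 ± 0.37, or 118-fold (adjusted p = 3.35e-09), which may be understated since the maxilla is dim. The call was made in all 20 alternative settings. Its 3 probe sets gave differences between 2.10 and 6.88, all higher in the mandible.

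The other genes of the mandibular identity list moved far less. Of 14 tested genes of the 17 listed, 4 rose and 1 fell in the mandible, with a median difference of 0.32 against −0.01 over all genes. The share called was 35.7%, against 8.81% of all genes. The 4 rises were 2 without mandible 1, mandible 2, maxilla 1 or maxilla 3, and the fall was lost without mandible 1 or maxilla 3. Gsc, the homeobox gene goosecoid, had 9.47, 9.84 and 9.23 in the mandible and 8.43, 6.34 and 8.33 in the maxilla. It rose by 1.81 ± 0.55 (adjusted p = 0.046), but maxilla 2 set much of that size, since the difference was 1.14 without it, and the call was lost whichever of the 6 arrays was left out. Cited1, a transcriptional coactivator, had 8.22, 8.54 and 8.01 in the mandible and 7.12, 6.38 and 7.12 in the maxilla. Its values did not overlap and its rise of 1.39 ± 0.31 (adjusted p = 0.0118) was called in every setting. Hand1, a close relative of Hand2, rose by 0.41 ± 0.12 (adjusted p = 0.0405), and this call was lost without mandible 1, mandible 2, maxilla 1 or maxilla 3. Ece1, the enzyme that makes active endothelin, fell by 0.55 ± 0.13 on its brightest probe set (adjusted p = 0.0179), a call lost without mandible 1 or maxilla 3, while its 3 probe sets ranged from −0.55 to 0.11.

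The Dlx genes that head the mandibular program gave no call between the distal ends. Dlx5 had 11.21, 11.11 and 10.98 in the mandible and 10.98, 10.65 and 10.94 in the maxilla, a difference of 0.24 ± 0.19 (adjusted p = 0.478). Dlx6 differed by 0.54 ± 0.24 (adjusted p = 0.175), Dlx3 by −0.16 ± 0.23 and Dlx4 by 0.12 ± 0.28. The mandible and maxilla values of Dlx3 and Dlx4 overlapped, and those of Dlx6 nearly met. Dlx1 and Dlx2, which are used in both parts of the arch and stood in the maxillary list, were higher in the mandible. Dlx1 had 8.82, 8.58 and 9.07 in the mandible and 6.81, 7.79 and 7.05 in the maxilla, a rise of 1.61 ± 0.40 (adjusted p = 0.0188). Dlx2 rose by 1.02 ± 0.31 (adjusted p = 0.0477). Both calls were lost without mandible 1, mandible 3, maxilla 1 or maxilla 3, and that of Dlx2 also without mandible 2. The endothelin gene Edn1 differed by −0.01 ± 0.13, and the factor gene Mef2c, a target of the pathway, by 0.18 ± 0.14 (adjusted p = 0.479). The remaining mandibular list members that did not pass were the LIM homeobox gene Isl1 (0.66 ± 0.44), the forkhead gene Foxd1 (−0.73 ± 0.39) and Dlx6os1, a transcript opposite Dlx6 (0.51 ± 0.46).

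A minority of the maxillary and frontonasal identity genes fell in the mandible, though a larger share than the 5.73% of all genes. In the maxillary identity list, 12 of 14 genes were tested, 4 fell and 2 rose (Dlx1 and Dlx2), with a median of −0.37. Nr2f1, an orphan nuclear receptor, had 8.0, 8.13 and 8.60 in the mandible and 10.68, 9.62 and 10.60 in the maxilla. The groups stood apart on every array, and its fall of 2.06 ± 0.38 (adjusted p = 0.00381) was called in every setting. The Iroquois homeobox genes Irx3 and Irx5 fell by 0.98 ± 0.20 (adjusted p = 0.00709) and 0.89 ± 0.18 (adjusted p = 0.00695). Nr2f2, the relative of Nr2f1, fell by 0.61 ± 0.18 (adjusted p = 0.0412) on its brightest probe set, a call lost without mandible 1, mandible 2, maxilla 1 or maxilla 3, and its 6 probe sets ranged from −0.83 to 0.30. Pou3f3, which is known for its maxillary expression, had 9.43, 10.04 and 10.11 in the mandible and 10.54, 11.30 and 10.62 in the maxilla without reaching the threshold (−0.96 ± 0.34, adjusted p = 0.087). Meis2 and Meis1 differed by 0.08 ± 0.24 and −0.12 ± 0.32. Foxl2, the Notch ligand gene Jag1 and Pou3f2 differed by −0.51 ± 0.36, −0.23 ± 0.11 and 0.14 ± 0.08, also without passing.

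In the frontonasal and midline list 3 of 10 tested genes fell in the mandible and kept their calls whichever array was left out. The list's median was −0.63. Pax7, a paired-box factor of nasal neural crest and of muscle precursors, had 7.72, 7.67 and 7.79 in the mandible and 10.43, 10.59 and 10.17 in the maxilla. It fell by 2.67 ± 0.42 (adjusted p = 0.00148), with the 3 mandible values close together. Tfap2b, an AP-2 factor, fell by 2.32 ± 0.49 (adjusted p = 0.00811), and the homeobox gene Six2 by 1.22 ± 0.26 (adjusted p = 0.00853). Alx1, a homeobox gene of the front of the face, was among the brighter factors in both jaws, with 12.02, 11.91 and 11.58 in the mandible and 12.25, 12.95 and 12.53 in the maxilla. Its difference of −0.74 ± 0.48 did not pass (adjusted p = 0.368). The Hox genes, which first-arch crest cells do not use, gave no call among 5 tested by limma, of which 1 had an unadjusted p under 0.05.

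**Figure D2:**
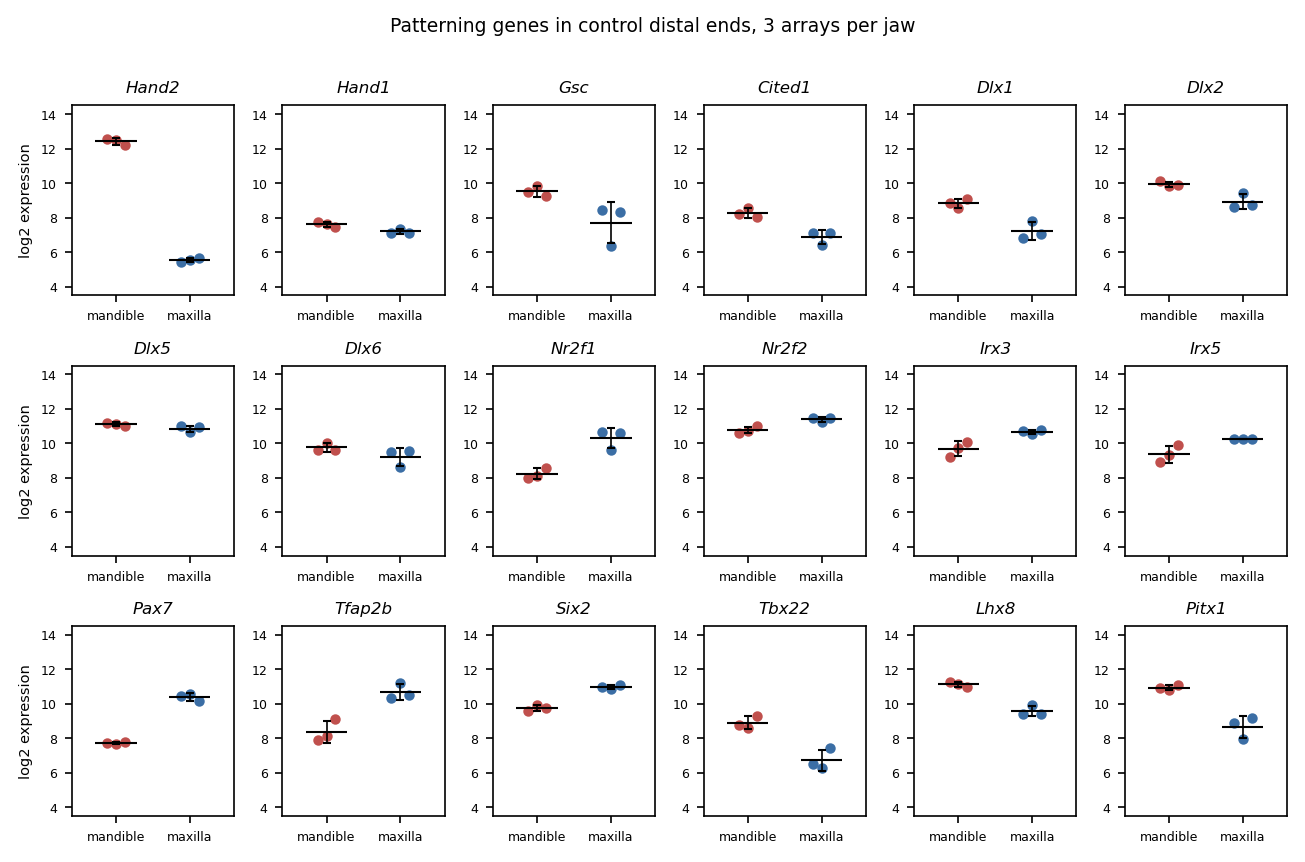
Log2 level of 18 patterning genes (vertical axes) in the 3 control distal mandible arrays (left, red) and the 3 control distal maxilla arrays (right, blue); horizontal lines are means and bars are 1 SD. Hand2 lies at 12.19 to 12.56 in the mandible and 5.40 to 5.63 in the maxilla, whereas Dlx5 lies at 10.98 to 11.21 in the mandible and 10.65 to 10.98 in the maxilla.

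A few genes of teeth, palate and oral lining rose in the mandible. Calls in either direction made up 19.2% of the tooth germ list and 15.2% of the surface and oral epithelium list. Over all genes they made up 8.81%. Pitx1, a homeobox gene of the lower jaw, its teeth and the hindlimb, had 10.92, 10.79 and 11.08 in the mandible and 8.86, 7.94 and 9.18 in the maxilla. The values did not overlap, and the rise of 2.27 ± 0.33 (adjusted p = 0.000753) was called in every setting. In the tooth germ list 5 of 26 tested genes rose and none fell (median 0.37): Pitx1, Dlx1, the LIM homeobox gene Lhx8 (1.57 ± 0.39, adjusted p = 0.019), Dlx2 and the enamel-organ factor gene Sp6 (0.86 ± 0.26, adjusted p = 0.045). The count of 5 was 1 without mandible 1, maxilla 1 or maxilla 3 and 2 without mandible 3. Shh, the signal of the tooth-forming epithelium, had 11.40, 10.79 and 11.12 in the mandible and 9.90, 10.58 and 10.04 in the maxilla, with a difference of 0.93 ± 0.47 (adjusted p = 0.237).

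Tbx22, a T-box gene whose loss causes cleft palate in people, had 8.76, 8.60 and 9.31 in the mandible and 6.52, 6.26 and 7.42 in the maxilla. It rose by 2.16 ± 0.45 (adjusted p = 0.00811), and the direction and the call held with each array left out. It and Lhx8 were the 2 rises among 16 palate shelf genes tested (median 0.71), and the call of Lhx8 was lost without mandible 1, maxilla 1 or maxilla 3. The share called, 12.5%, was near the 8.81% of all genes. The palate factor gene Osr2 differed by −0.56 ± 0.23 (adjusted p = 0.139) and Shox2 by −0.36 ± 0.25.

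The surface and oral epithelium list had 4 rises and 1 fall among 33 genes tested, and a median of −0.40. Its differences, called or not, were positive for 11 genes and negative for 22. The 4 rises were 1 without mandible 1, mandible 3, maxilla 1 or maxilla 3, and the falls were 3 without mandible 3 and 0 without mandible 1, mandible 2, maxilla 2 or maxilla 3. The rises included Krt13 and Krt4, the keratin pair of the moist oral lining. Krt13 had 11.50, 8.85 and 11.72 in the mandible and 7.44, 8.44 and 8.08 in the maxilla. Mandible 2 lay close to the maxilla arrays, and the rise of 2.70 ± 0.65 (adjusted p = 0.0169), like that of Krt4 (1.77 ± 0.44, adjusted p = 0.0186), was lost without mandible 1, mandible 3, maxilla 1 or maxilla 3. In mandible 2 the mean of the list relative to the 6 arrays was also the lowest, at −0.75, against −0.07 and 0.54 in mandible 1 and 3 and −0.11 to 0.23 in the maxilla. The part of epithelial content in these differences was not tested. The basal keratin genes Krt5 and Krt14 differed by 0.30 ± 0.42 and 0.59 ± 0.35 (adjusted p = 0.709 and 0.319).

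Skeletal muscle genes made up most of the largest rises in the mandible. In the contractile list, which was chosen with the muscle content of these samples known, 30 of 36 genes rose and 0 fell, with a median difference of 3.30. In a bulk sample fewer cells of a type and less RNA per cell cannot be told apart. The count was 13 without mandible 1 and 22 to 27 with any other array left out. Acta1, skeletal muscle actin, had 13.48, 12.35 and 13.04 in the mandible and 8.95, 8.29 and 9.30 in the maxilla. Mandible 2 was the lowest mandible array for this gene, and the groups were far apart (4.11 ± 0.88, adjusted p = 0.00892).

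Among the 12 largest rises, 11 were genes of muscle or known for expression there. Myh8, perinatal myosin heavy chain, had 11.31, 9.77 and 10.56 in the mandible and 5.13, 4.5 and 5.60 in the maxilla, where it was dim. Its difference was 5.47 ± 1.12 (adjusted p = 0.00709). The troponin C gene Tnnc2 rose by 4.68 ± 1.00, the titin gene Ttn by 4.6 ± 1.05 on its brightest probe set (its 6 probe sets ranged from 0.23 to 4.6), Tceal7 by 4.46 ± 0.90 and Atp1b4 by 4.28 ± 0.57. The embryonic myosin gene Myh3 (4.21 ± 0.94), the sarcolipin gene Sln (4.16 ± 0.83) and the myomesin, nebulin and myosin light chain genes Myom2, Neb and Myl1 (4.25 ± 0.81, 3.93 ± 0.87 and 3.91 ± 0.89) completed them with Acta1. Of these calls, those of Ttn and Myl1 were lost without mandible 1. Ckm, muscle creatine kinase, had 10.79, 8.60 and 10.52 in the mandible and 6.32, 6.43 and 6.41 in the maxilla, a rise of 3.58 ± 0.59 (adjusted p = 0.00212). In the maxilla 14 of the 36 genes were dim, against 2 in the mandible.

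The factors that make muscle cells showed smaller differences than the contractile genes. Myog, myogenin, had 11.29, 11.03 and 11.52 in the mandible and 9.46, 8.30 and 9.36 in the maxilla. It rose by 2.24 ± 0.68 (adjusted p = 0.0474). Mymk, needed for myoblast fusion, rose by 2.04 ± 0.57, and Msc, a factor of head muscle, by 1.57 ± 0.48. These 3 were the only rises among 12 myogenic regulators tested (median 0.35), and each lost its call whichever of the 6 arrays was left out. Myod1 and Myf5 differed by 1.27 ± 0.51 and 1.44 ± 0.53 without passing (adjusted p = 0.126 and 0.0968). The list's only fall was Pax7, and 33.3% of its tested genes were called, against 8.81% of all genes.

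The tendon and ligament list had 3 rises and 3 falls among 15 genes tested (40.0% called, against 8.81% of all genes). Thbs4, a thrombospondin of tendon and muscle attachments, had 10.36, 10.16 and 9.47 in the mandible and 6.86, 6.09 and 6.57 in the maxilla, and rose by 3.49 ± 0.62 (adjusted p = 0.00306). Scx, the tendon factor scleraxis, rose by 1.00 ± 0.20 (adjusted p = 0.0068) and the protease gene Htra3 by 1.26 ± 0.20 (adjusted p = 0.00147). The falls were the fibril-associated collagen gene Col14a1 (−1.03 ± 0.23) and the early-response factor genes Egr2 (−1.03 ± 0.21) and Egr1 (−0.64 ± 0.18). Both Egr genes are counted again among the immediate early genes below. The call of Col14a1 was lost without maxilla 1, that of Egr1 without any array but maxilla 2, and the others held. Without maxilla 1 the tendon list had 1 fall, and without any mandible array or maxilla 3 it had 2.

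Some nasal, ciliary and neuronal genes fell in the mandible, several of them among the largest falls. Of 17 olfactory and nasal sensory genes tested, 7 fell in the mandible and 0 rose (median −0.79). Of 10 genes of the respiratory and glandular lining of the nose, 5 fell (median −1.53), of 10 motile cilia genes 4 fell (median −1.63) and of 20 neuronal and neurogenic genes 12 fell (median −2.13), with 0 rises in all 3. Over all genes tested 5.73% fell. Maxilla 2 lay below maxilla 1 and 3 in each of these lists, as the plot of marker list means shows. The counts rested on single arrays. Without maxilla 2 they were 10, 6, 8 and 14, and without maxilla 1 or maxilla 3 they were 3, 1, 1 and 1. Without mandible 1 they were 3, 3, 1 and 4, without mandible 2 they were 5, 3, 1 and 7, and without mandible 3 they were 5, 3, 1 and 5. In the mandible arrays 5 of 17, 5 of 10, 7 of 10 and 10 of 20 of these genes were dim, against 0, 0, 0 and 1 in the maxilla arrays. These counts cover only tested genes, which lay above the array median on at least 3 arrays, while 20, 18, 17 and 21 had a probe set. That filter left out genes dim nearly everywhere, so the low maxilla counts are partly set by it and do not by themselves compare the jaws.

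Bpifa1, which encodes an antimicrobial protein secreted by the nasal lining, had 5.53, 4.77 and 4.59 in the mandible and 12.73, 9.12 and 12.84 in the maxilla. Maxilla 2 was lower than its mates by more than 3 units and still far above every mandible array. The fall was 6.6 ± 1.51 (adjusted p = 0.0125), and the difference was −7.82 without maxilla 2. The call was lost without maxilla 1 or maxilla 3. Otx2, a homeobox gene of the front of the head, had 4.19, 4.04 and 4.38 in the mandible and 9.59, 8.34 and 9.92 in the maxilla, and fell by 5.08 ± 1.19 (adjusted p = 0.0142). Its call was lost without mandible 1, maxilla 1 or maxilla 3.

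Fezf1, a zinc-finger factor of olfactory sensory neurons, was as high in maxilla 2 as in the others. It had 5.77, 5.68 and 5.63 in the mandible and 10.28, 10.58 and 10.61 in the maxilla, and its fall of 4.80 ± 1.03 (adjusted p = 0.00911) was called in every setting. Aldh1a1, an enzyme that makes retinoic acid, fell by 4.80 ± 0.97 (adjusted p = 0.0068), also in every setting. Lhx2, a LIM homeobox factor of the olfactory epithelium and of hair follicles, fell by 3.94 ± 0.87 (adjusted p = 0.0107), but not without mandible 1, maxilla 1 or maxilla 3. The mature olfactory marker gene Omp had 7.11, 7.14 and 7.09 in the mandible and 8.33, 7.22 and 7.57 in the maxilla and did not pass (−0.59 ± 0.20, adjusted p = 0.0683).

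Dynlrb2, a dynein light chain of cilia, had 5.13, 5.07 and 5.22 in the mandible and 11.44, 8.15 and 10.56 in the maxilla. It fell by 4.91 ± 1.19 (adjusted p = 0.0173). Foxj1, the factor that switches on motile cilia, fell by 3.37 ± 0.95 (adjusted p = 0.0355) and Ccno, needed for the many basal bodies of ciliated cells, by 3.48 ± 0.91 (adjusted p = 0.0244). Both calls were lost without any array but maxilla 2, and that of Dynlrb2 without mandible 1, maxilla 1 or maxilla 3. All mandible values of these 3 genes were dim.

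Among genes of forming neurons, Insm1 had 5.05, 5.11 and 5.12 in the mandible and 10.72, 7.98 and 10.72 in the maxilla and fell by 4.71 ± 1.07 (adjusted p = 0.0121). Neurod1, a neurogenic helix-loop-helix factor, fell by 4.24 ± 1.01 and the stathmin gene Stmn3 by 4.05 ± 0.80 (adjusted p = 0.0158 and 0.00608). The Stmn3 call held with each array left out, whereas those of Insm1 and Neurod1 were lost without maxilla 1 or maxilla 3, and that of Neurod1 also without mandible 1. The neuronal tubulin gene Tubb3 had 8.05, 7.34 and 7.56 in the mandible and 10.42, 8.83 and 10.51 in the maxilla, above the array median in both jaws. In the glial list 4 of 12 genes fell (33.3%, against 5.73% of all genes). They included the brain lipid-binding protein gene Fabp7 (−2.39 ± 0.60) and Sox10 (−0.62 ± 0.19, adjusted p = 0.0447). The count was 1 without mandible 1, mandible 2, maxilla 1 or maxilla 3, and 3 without mandible 3 or maxilla 2.

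Some genes of brain and eye fell with the nasal lists, 36.4% of those tested against 5.73% of all genes. They were 4 of 11 tested: Emx2 (−2.26 ± 0.43, adjusted p = 0.00487), Pax6 (−2.22 ± 0.56), Six3 (−1.73 ± 0.40) and the pigment cell gene Pmel (−1.46 ± 0.42). Emx2 had 7.38, 8.34 and 8.20 in the mandible and 10.22, 10.09 and 10.39 in the maxilla and was the only one of the 4 called with each array left out. The count was 2 without mandible 1, mandible 2 or maxilla 1 and 1 without maxilla 3. The part that nasal or other attached tissue had in these differences was not tested.

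**Figure D3:**
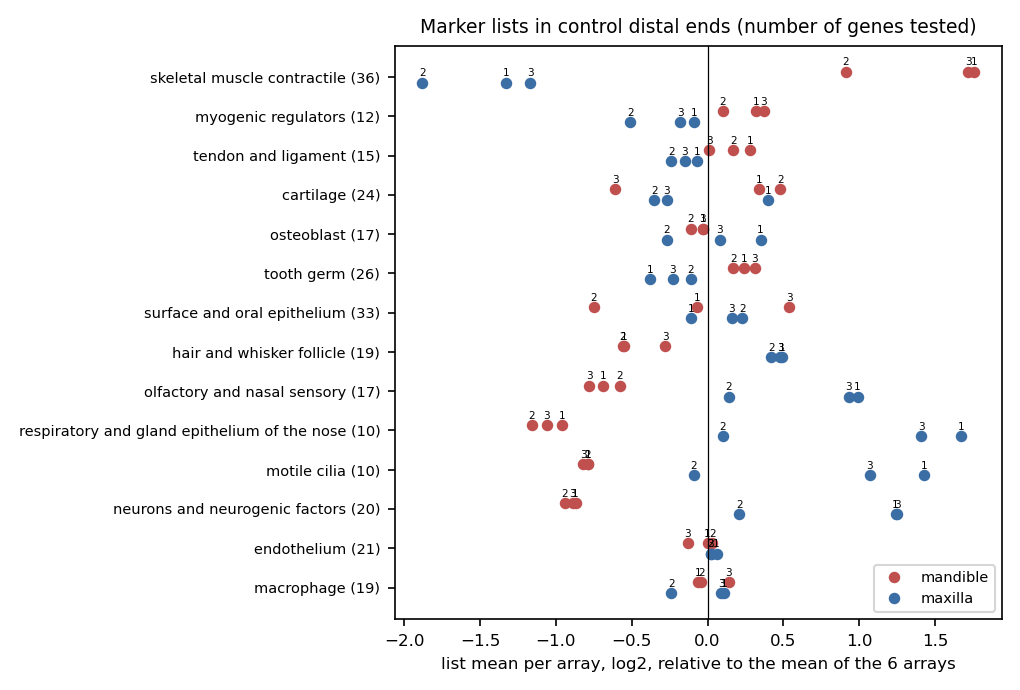
Mean log2 level of 14 marker lists per array, relative to the mean of the 6 arrays (horizontal axis), for control distal mandible (red, upper row of each pair) and control distal maxilla (blue, lower row), with the array number beside each point and the number of genes tested in brackets. Skeletal muscle means are 0.91 to 1.76 in the mandible and −1.88 to −1.17 in the maxilla, and maxilla 2 lies below the other maxilla arrays in the 4 nasal, ciliary and neuronal lists.

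A minority of follicle genes fell in the mandible. Of 19 hair and whisker follicle genes 5 fell (26.3%, against 5.73% of all genes) and 0 rose (median −0.82). Krt73, a keratin of the inner root sheath, had 6.56, 6.75 and 6.37 in the mandible and 8.80, 9.61 and 8.89 in the maxilla, with all mandible values dim, and fell by 2.54 ± 0.47 (adjusted p = 0.00405). Its call held with each array left out. Krt25, from the same layer, fell by 2.81 ± 0.64, the sheath protein gene Tchh by 1.86 ± 0.51 and Sox21 by 0.94 ± 0.27. The count of 5 was 1 without maxilla 1 or maxilla 3, 2 without mandible 1 and 3 without mandible 2.

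The cornified-layer genes Hrnr and Lor had their highest value in maxilla 2. Hrnr, hornerin, had 4.12, 4.22 and 4.57 in the mandible and 8.13, 10.59 and 8.74 in the maxilla. It fell by 4.85 ± 0.98 (adjusted p = 0.0068), with all mandible values dim. Lor, loricrin, had 8.44, 7.87 and 8.37 in the mandible and 9.12, 11.17 and 9.95 in the maxilla, and its fall of 1.86 ± 0.54 (adjusted p = 0.039) was lost without any array but maxilla 1. The protease inhibitor gene Serpinb11 had 6.10, 5.47 and 6.8 in the mandible and 11.37, 10.77 and 10.92 in the maxilla and fell by 4.89 ± 0.87 (adjusted p = 0.00299). In families that were singled out after the values were seen, 4 of 10 Lce and Sprr genes, 3 of 13 Serpinb genes and 5 of 7 sulfotransferase (Sult) genes fell, while 1 Serpinb gene (Serpinb1b) and 1 Sult gene (Sult5a1) rose.

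Sulfotransferases conjugate hormones and foreign compounds. Sult1e1, which acts on oestrogens, had 4.75, 4.72 and 4.41 in the mandible and 10.14, 6.95 and 9.76 in the maxilla, following the pattern of the nasal genes over the maxilla arrays. It fell by 4.32 ± 0.97 (adjusted p = 0.0114), a call lost without maxilla 1 or maxilla 3. Sult2b1 had 7.16, 6.79 and 7.52 in the mandible and 9.08, 9.30 and 9.23 in the maxilla, and fell by 2.04 ± 0.34 (adjusted p = 0.00222) in every setting. Reg3g, an antimicrobial lectin gene, fell by 4.06 ± 1.04 (adjusted p = 0.0218), a call lost without any array but maxilla 2.

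Among signalling pathways the Wnt list had 28 positive and 17 negative differences among 45 genes tested, with a median of 0.10. Its calls were 7 rises and 0 falls, 15.6% of the list against 8.81% of all genes. Several of the 7 genes that rose encode inhibitors. Sfrp4, a secreted Wnt antagonist, had 12.40, 12.28 and 12.03 in the mandible and 9.80, 9.50 and 9.51 in the maxilla, bright in both jaws. It rose by 2.63 ± 0.29 (adjusted p = 3.51e-05). Lgr5, an R-spondin receptor, rose by 1.41 ± 0.21 (adjusted p = 0.000982), the antagonist gene Frzb by 1.06 ± 0.31, and Dkk2 by 0.71 ± 0.21. The ligand genes Wnt11 and Wnt5b rose by 0.65 ± 0.20 and 0.59 ± 0.16, and Notum, an enzyme that inactivates Wnt proteins, by 0.53 ± 0.13. The calls of Sfrp4 and Lgr5 held in every setting. The count of 7 was 2 without mandible 1, maxilla 1 or maxilla 3, 3 without mandible 2 or mandible 3 and 5 without maxilla 2. Wnt5a and the pathway effector gene Lef1 differed by −0.50 ± 0.35 and −0.29 ± 0.25 and did not pass.

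The BMP list was split, with 3 rises and 3 falls among 32 genes (18.8% called, against 8.81% of all genes). Gdf5, a ligand of joint-forming tissue, had 7.82, 8.11 and 7.59 in the mandible and 6.46, 6.29 and 6.08 in the maxilla, where it was dim, and rose by 1.57 ± 0.29 (adjusted p = 0.00381). The antagonist gene Grem1 rose by 0.79 ± 0.21 and the ligand gene Gdf10 by 0.62 ± 0.14. The receptor gene Bmpr1b fell by 1.07 ± 0.32, the secreted regulator gene Bmper by 1.02 ± 0.22 and the target gene Id4 by 0.83 ± 0.23. The 3 falls became 0 without mandible 3, 1 without mandible 2, maxilla 1 or maxilla 3, and 2 without mandible 1. The ligand genes Bmp4 and Bmp2 differed by 0.27 ± 0.27 and −0.20 ± 0.13.

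In the FGF list 2 of 25 genes rose and 2 fell. Fgf18, a ligand in skeletal growth, had 9.65, 9.87 and 9.97 in the mandible and 8.42, 8.49 and 8.69 in the maxilla, and its rise of 1.3 ± 0.22 (adjusted p = 0.00246) was called in every setting. Fgfr4, a receptor used by muscle precursors, rose by 1.15 ± 0.32 (adjusted p = 0.0319), a call lost whichever array was left out, and muscle markers were higher in the same arrays. The phosphatase gene Dusp4, a feedback target, fell by 1.08 ± 0.26 and Fgf12 by 0.94 ± 0.18. The call of Dusp4 was lost without mandible 1, maxilla 1 or maxilla 3, and the list had 3 falls without maxilla 2.

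Hedgehog genes gave 1 rise and 1 fall among 18, a share of 11.1%, near the 8.81% of all genes. The receptor and target gene Ptch1 had 12.44, 12.24 and 12.13 in the mandible and 11.80, 11.98 and 11.78 in the maxilla, a rise of 0.42 ± 0.12 (adjusted p = 0.0383) lost without mandible 1, mandible 2, maxilla 1 or maxilla 3. Boc, a co-receptor gene, fell by 0.62 ± 0.11 (adjusted p = 0.00299) in every setting.

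Of 23 TGF-beta pathway genes, 4 fell (17.4%, against 5.73% of all genes) and 0 rose (median −0.03). They were Ltbp2 (−1.11 ± 0.28) and Ltbp4 (−0.68 ± 0.13), whose proteins store latent TGF-beta in the matrix, the ligand gene Tgfb2 (−0.33 ± 0.08) and the shared transducer gene Smad4 (−0.19 ± 0.05). Ltbp4 had 9.34, 9.09 and 9.26 in the mandible and 10.16, 9.72 and 9.84 in the maxilla and was the only one of the 4 called with each array left out. The count was 2 without mandible 1, mandible 2, mandible 3 or maxilla 2. Tgfbr2 itself had 12.07, 12.12 and 12.02 in the mandible and 11.91, 11.90 and 11.89 in the maxilla, a difference of 0.17 ± 0.09 (adjusted p = 0.25).

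Of 18 retinoic acid genes 2 rose and 2 fell in the mandible (22.2% called, against 8.81% of all genes). Cyp26a1, which degrades retinoic acid, had 9.11, 8.90 and 8.89 in the mandible and 7.55, 8.02 and 7.66 in the maxilla, and rose by 1.23 ± 0.24 (adjusted p = 0.00628). The retinol carrier gene Rbp4 rose by 1.02 ± 0.25 and the retinol uptake gene Stra6 fell by 0.98 ± 0.17, beside the fall of Aldh1a1 given above. The calls of Cyp26a1, Stra6 and Aldh1a1 held in every setting, and that of Rbp4 was lost without mandible 1, mandible 2, mandible 3 or maxilla 1. The other synthesis genes Aldh1a2 and Aldh1a3 differed by −0.42 ± 0.27 and −0.23 ± 0.26 without passing (adjusted p = 0.358 and 0.658).

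Among guidance molecules, Epha5, an ephrin receptor, had 6.17, 6.86 and 6.26 in the mandible, where it was dim, and 7.46, 8.11 and 7.49 in the maxilla. It fell by 1.26 ± 0.24 (adjusted p = 0.00433), and the ligand genes Efna3 and Efna5 fell by 0.62 ± 0.16 and 0.56 ± 0.11. These were the 3 calls among 18 ephrin and Eph genes (16.7%, against 8.81% of all genes). The netrin receptor gene Dcc fell by 1.46 ± 0.31 and its relative Neo1 by 0.27 ± 0.08, the only 2 calls among 30 semaphorin, netrin and slit genes. That share of 6.67% was near the 8.81% of all genes. The call of Neo1 was lost without any array but mandible 1.

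The skeletal lists held few or no calls between the distal ends, beside the 8.81% called over all genes. In lists this short, so few calls do not set them apart from that share. None of 17 osteoblast genes was called by limma (median −0.02), and 2 had an unadjusted p under 0.05. The factor gene Sp7 had 10.56, 10.61 and 10.29 in the mandible and 10.65, 10.10 and 10.43 in the maxilla, with a difference of 0.09 ± 0.22, and the bone sialoprotein gene Ibsp differed by −0.02 ± 0.37. Of 24 cartilage genes 1 rose (median 0.02), Prg4, the joint lubricant proteoglycan gene, with 8.29, 7.84 and 7.67 in the mandible and 6.23, 5.88 and 5.98 in the maxilla (1.90 ± 0.37, adjusted p = 0.00505). Col2a1 and Acan, the main matrix genes of cartilage, varied more within a jaw than between jaws: Acan had 11.02, 11.31 and 9.33 in the mandible and 11.50, 10.28 and 10.29 in the maxilla (−0.14 ± 1.18). No osteoclast gene of 8 and no macrophage gene of 19 was called, while 4 and 0 of them had an unadjusted p under 0.05. Of 30 collagen genes 2 fell (6.67%), Col14a1 and Col23a1, and none without maxilla 1.

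The share of vessel and blood genes called was near that of all genes, with 9.52% of the endothelial and 10% of the erythroid list against 8.81%. Of 21 endothelial genes 2 fell (median 0.01): Erg, an endothelial ETS factor, by 0.96 ± 0.15 (adjusted p = 0.00147) and Vwf, the clotting factor gene, by 0.96 ± 0.27. Erg had 9.38, 9.48 and 9.31 in the mandible and 10.50, 10.26 and 10.28 in the maxilla and was called in every setting, whereas Vwf was lost whichever array was left out. The vessel genes Cdh5 and Pecam1 differed by −0.16 ± 0.08 and 0.07 ± 0.10. In the erythroid list the haem enzyme gene Alas2 rose by 0.68 ± 0.18, 1 of 10, a call lost without mandible 1, mandible 2, maxilla 1 or maxilla 3. Of 12 smooth muscle and mural genes Des, desmin, which skeletal muscle shares, rose (2.00 ± 0.53) and the enteric actin gene Actg2 and the pericyte receptor gene Pdgfrb fell (−0.90 ± 0.21 and −0.53 ± 0.11); the rise was lost without any array but mandible 2. The fall of Actg2 was lost without mandible 2 or maxilla 1, and the list had 3 falls without maxilla 2. Of 9 salivary gland genes the water channel gene Aqp5 (−0.87 ± 0.23) and Sox10 fell, 0 of them without any array but maxilla 2, without which 1 was called. Of 33 cell cycle genes 3 rose and 0 fell (9.09% called, near the 8.81% of all genes), with Ccne1, cyclin E1, at 0.62 ± 0.09 (adjusted p = 0.000943) in every setting. This count of 3 was 1 without mandible 1 or any maxilla array. Of 18 immediate early genes 5 fell, led by Egr2, Zfp36 (−0.69 ± 0.12) and Egr1, and this count was 2 without mandible 2, mandible 3, maxilla 1 or maxilla 3 and 3 without mandible 1.

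The genes with the smallest p-values, chosen after their values were seen, were mostly outside these lists and had tight replicates. Qrfpr, the receptor for a neuropeptide, had 7.48, 7.07 and 7.14 in the mandible and 4.35, 4.69 and 4.34 in the maxilla, and rose by 2.77 ± 0.17 (adjusted p = 1.68e-08). Angptl1, a secreted angiopoietin-like protein, rose by 1.71 ± 0.13 (adjusted p = 4.53e-07). Masp1, a protease of the lectin complement pathway, had 10.58, 10.07 and 9.99 in the mandible and 7.81, 8.17 and 8.17 in the maxilla, a rise of 2.16 ± 0.21. The homeobox genes Tlx1 and Nkx2-3 rose by 1.36 ± 0.14 and 1.53 ± 0.17 (adjusted p = 1.8e-05 and 3.51e-05). Falls of this kind were Vit, the matrix protein vitrin (−1.79 ± 0.17, adjusted p = 5.77e-06), Pid1 (−1.34 ± 0.12), the adhesion molecule gene Alcam (−1.21 ± 0.12) and Apod, apolipoprotein D (−1.99 ± 0.26). The calls of these genes held with each array left out.

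Whether the jaw difference at the distal ends departed from that at the proximal ends was tested in controls as the difference between the 2 jaw differences. It passed for 514 genes (4.01%), with the distal value the higher in 142 and the lower in 372. The count was 288 without maxilla 2, 300 without mandible 1, 298 without mandible 3 and 316 without maxilla 1. The number with the higher distal value, 142, was 47 without maxilla 2, 63 without mandible 1, 64 without mandible 3 and 77 without maxilla 1. At the proximal ends themselves 4302 genes (33.6%) differed between the jaws. Of the 1129 distal calls 818 were also called at the proximal ends in the same direction, which is 72.5% of the distal calls and 19.0% of the proximal calls, and 22 were called in opposite directions, 17 of them lower in the distal mandible. In sign alone, 1027 of the 1129 went the same way at the proximal ends. The proximal arrays share no array with the distal comparison. The labels do not say whether distal and proximal ends came from the same embryos, and the test between ends did not pair them.

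Hand2 differed more at the distal ends. At the proximal ends it had 9.78, 10.01 and 10.09 in the mandible and 6.97, 6.08 and 6.06 in the maxilla, so that the jaw difference was 6.88 at the distal and 3.59 at the proximal ends (difference 3.29 ± 0.52, adjusted p = 0.00207). Tbx22 turned its direction. It was higher in the distal mandible by 2.16 and lower in the proximal mandible (−2.19), where it had 7.0, 7.04 and 6.8 in the mandible and 9.30, 9.53 and 8.60 in the maxilla (difference 4.35 ± 0.64, adjusted p = 0.00135). Alx1, which was not called at the distal ends, had a large jaw difference at the proximal ends. There it had 7.25, 7.80 and 6.09 in the mandible and 11.38, 11.86 and 11.81 in the maxilla, and the jaw differences were −0.74 distally and −4.64 proximally (difference 3.90 ± 0.68, adjusted p = 0.00381).

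Qrfpr was low in the proximal mandible (4.33, 4.16 and 4.21) and the proximal maxilla (3.90, 4.08 and 4.11), and its jaw differences of 2.77 distally and 0.20 proximally differed by 2.56 ± 0.24 (adjusted p = 1.84e-05). Vit, low in the distal mandible, was high in the proximal mandible, with 8.79, 9.02 and 8.73, against 7.69, 7.80 and 7.76 in the proximal maxilla. Its jaw differences were −1.79 and 1.10 (difference −2.89 ± 0.23, adjusted p = 3.48e-06). Egr2 turned likewise, with −1.03 distally and 1.51 proximally (difference −2.53 ± 0.29, adjusted p = 0.000199). Nr2f1 and Irx5, which fell in the distal mandible, had proximal jaw differences of 0.11 and 0.07, and the tests of the difference gave adjusted p = 0.0299 and 0.0412. The proximal mandible arrays had 10.93, 11.33 and 11.19 for Nr2f1, close to the 11.13, 11.01 and 10.96 of the proximal maxilla.

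Bone genes marked the other direction. Of the 17 osteoblast genes 10 passed the test between ends. At the proximal ends 14 of the 17 were higher in the mandible and 1 lower (median 1.5), against 0 calls at the distal ends. Dmp1, a matrix protein of osteocytes, had 13.07, 12.45 and 12.19 in the proximal mandible and 11.11, 9.60 and 8.97 in the proximal maxilla, beside 10.16, 9.65 and 9.81 in the distal mandible and 11.81, 10.06 and 10.90 in the distal maxilla. Its jaw differences were −1.05 distally and 2.68 proximally (difference −3.73 ± 0.77, adjusted p = 0.0105), and those of Phex, a regulator of mineralisation, −0.56 and 2.67 (difference −3.24 ± 0.75, adjusted p = 0.0223). Mef2c and Dlx2, of the endothelin and Dlx axis, also differed more at the proximal ends, by 1.35 and 2.89 there against 0.18 and 1.02 distally (adjusted p of the difference = 0.0035 and 0.0235).

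Most muscle genes were called higher, and most neuronal genes lower, in the mandible at both ends. The muscle list had a median of 3.30 distally and 3.10 proximally, with 34 of 36 genes higher in the proximal mandible and 0 passing limma's test between ends (0 also at an unadjusted p under 0.05). The neuronal list had medians of −2.13 and −3.13, with 1 of 20 passing. Acta1 and Bpifa1 had jaw differences of 4.11 and −6.6 distally and 3.13 and −7.92 proximally (adjusted p of the difference = 0.753 and 0.819). These tests do not show that the ends were alike, since the standard error of that difference was 1.24 for Acta1 and 2.14 for Bpifa1. The follicle keratin gene Krt73 had jaw differences of −2.54 distally and 0.07 proximally (adjusted p of the difference = 0.0355).

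**Figure D4:**
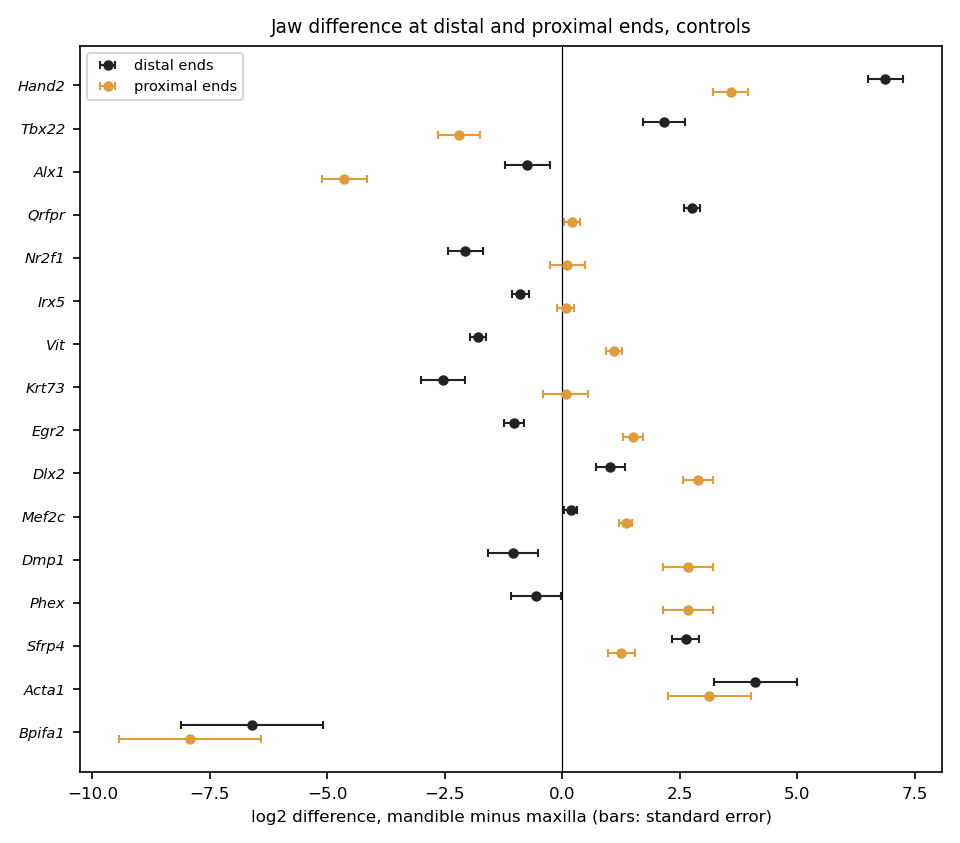
Log2 difference, mandible minus maxilla, for 16 genes at the distal ends (black, upper) and proximal ends (orange, lower) of control jaws (horizontal axis), 3 arrays per group, with bars of 1 standard error. Tbx22 has 2.16 distally and −2.19 proximally, and Vit −1.79 distally and 1.10 proximally.

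The distal ends of Tgfbr2 mutants, on separate arrays, gave 549 calls (4.29%) between mandible and maxilla. Of the 1129 calls in controls 214 were also called in mutants in the same direction, which is 19.0% of the control calls and 39.0% of the mutant calls, and 0 in the opposite direction. In sign alone, called or not, 1033 of the 1129 went the same way in mutants. Mutant distal maxilla 1 stood apart from its mates: its mean level over the muscle list was 9.96, against 6.68 and 7.21, and over the olfactory list 8.0, against 8.59 and 8.56. Without it the mutant calls were 526 and the shared calls 289, or 25.6% of the control and 54.9% of the mutant calls, and 1082 of the 1129 had the same sign. The muscle list had 0 of 36 genes called in mutants by limma (median 0.85, 2 genes with an unadjusted p under 0.05), and 17 (median 2.10) without that array, beside 30 (median 3.30) in controls.

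The test of the difference between genotypes passed for only 2 genes (0.0156%), Angptl1 and Tgfbi, while 1130 genes had an unadjusted p under 0.05. Both were also the genes called without mutant distal maxilla 1, where 637 had an unadjusted p under 0.05. Angptl1 had 8.71, 8.96 and 8.68 in the mutant distal mandible and 8.95, 8.95 and 8.87 in the mutant distal maxilla, against 10.44, 10.48 and 10.53 in the control distal mandible and 8.85, 8.84 and 8.61 in the control distal maxilla. The mandible values of the mutants lay at the level of the maxilla, and the jaw differences were −0.14 in mutants and 1.71 in controls (difference −1.85 ± 0.19, adjusted p = 0.000104). Tgfbi, an extracellular protein induced by TGF-beta, had 10.34, 10.80 and 10.54 in the mutant mandible and 11.62, 11.96 and 11.40 in the mutant maxilla, against 11.52, 11.34 and 11.22 in the control mandible and 11.01, 11.37 and 11.15 in the control maxilla. Its jaw differences were −1.10 in mutants and 0.18 in controls (difference −1.28 ± 0.19, adjusted p = 0.0134). The count was 1 without control mandible 1, control maxilla 1 or control maxilla 3.

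Hand2 had jaw differences of 6.58 in mutants and 6.88 in controls (adjusted p of the difference = 0.877), with 12.40, 12.98 and 12.74 in the mutant mandible and 7.39, 5.27 and 5.72 in the mutant maxilla. Mutant distal maxilla 1 was the highest of the maxilla arrays here too. Pitx1 had differences of 2.36 and 2.27, Sfrp4 of 2.38 and 2.63, Gsc of 1.83 and 1.81, Pax7 of −2.01 and −2.67 and Nr2f1 of −1.62 and −2.06, each in mutants and in controls. None of these pairs passed the test of the difference. Qrfpr differed by 4.05 in mutants and 2.77 in controls (difference 1.28 ± 0.24, adjusted p = 0.136).

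Several muscle genes had smaller jaw differences in mutants than in controls without passing that test. Ckm had 6.41, 6.29 and 6.43 in the mutant distal mandible, against 10.79, 8.60 and 10.52 in the control distal mandible, and its jaw differences were −0.29 in mutants and 3.58 in controls (difference −3.88 ± 0.84, adjusted p = 0.31). Atp1b4 had −0.31 in mutants and 4.28 in controls (difference −4.6 ± 0.81, adjusted p = 0.0848). Over the muscle list the median of this difference was −2.28, and −1.15 without mutant distal maxilla 1, with 0 of 36 genes called either way and 20 at an unadjusted p under 0.05 with all arrays.

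**Figure D5:**
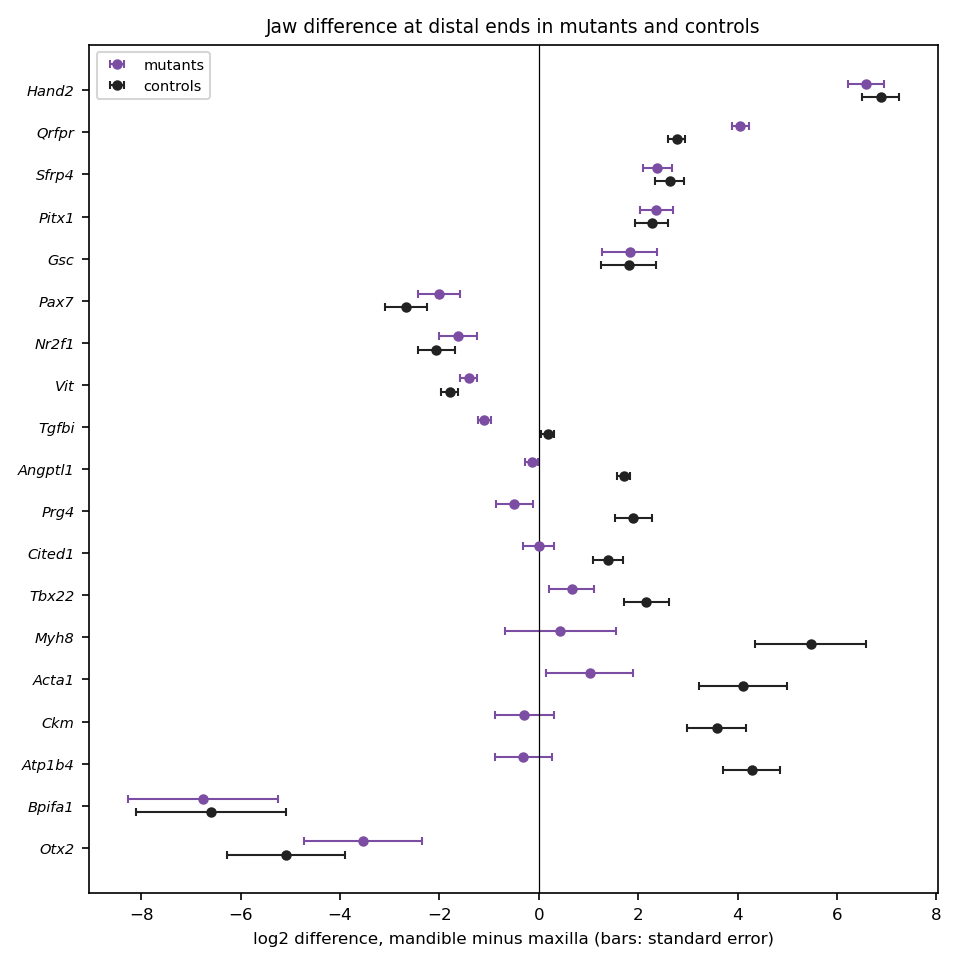
Log2 difference, distal mandible minus distal maxilla, for 19 genes in Tgfbr2 mutants (purple, upper) and controls (black, lower) (horizontal axis), 3 arrays per group, with bars of 1 standard error. Angptl1 has −0.14 in mutants and 1.71 in controls, while Hand2 has 6.58 in mutants and 6.88 in controls.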

How the data were processed

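RNA from distal and proximal ends of control and mutant jaws (5 µg of total RNA per sample, per the labels) was hybridised to 24 arrays in 8 groups of 3. The authors deposited 1 log2 value per probe set and array. The submitters' processing notes name RMA and Partek 6.6, without giving their settings, which no source used here records. That the scale is log2 follows from the values, which ran from 3.44 to 14.83. The 45101 probe sets comprised 64 array controls, 34945 with a single gene symbol, 932 shared between genes and 9160 with no name here. Identifiers matched RefSeq for 34741. The probe set with the highest mean stood for each of 18193 genes, and 12811 genes above the array median on at least 3 arrays were tested.

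A linear model of all 24 arrays was fitted with R 4.3.3 and limma 3.58.1 (two-sided moderated tests, Benjamini-Hochberg adjustment, threshold 0.05). The fit was tested on simulated data. The members and the 36 gene lists were chosen with earlier results of these data known, so list counts are descriptions beside the counts over all genes. The text names the 12 called genes with the largest difference each way and no overlap, all tested mandibular and maxillary identity genes, up to 4 members each way and defining members of each other list, and the 6 largest each way for the comparisons between ends and genotypes. Sex-linked genes and genes with only clone names were skipped, and any others are said to be chosen after their values were seen. Alternatives covered the arrays in the fit, filter, probe set choice, scaling, variance model, a replicate block and leaving out each array, 20 in all. Leaving out mutant distal maxilla 1 was added after the data were seen.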

Additional observations from a re-analysis of the deposited data

Results flagged for a closer look

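Jaw differences that departed between the distal and proximal ends of control jaws, by limma's test of the difference itself, are given here as the distal minus the proximal value for the 6 largest each way. The distal value was the higher for Tbx22 (4.35), Alx1 (3.90), Hand2 (3.29), Ckmt1, a mitochondrial creatine kinase gene (3.23), Qrfpr (2.56) and Ctxn3 (2.35). For Ckmt1 the jaw differences were −1.55 distally and −4.78 proximally, and for Ctxn3 −1.25 and −3.61. Neither of these 2 genes was called at the distal ends (adjusted p = 0.0621 and 0.055).

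The distal value was the lower for Dlx1as, the antisense transcript of Dlx1 (−3.74), Dmp1 (−3.73), Phex (−3.24), the early-response gene Egr3 (−3.19), Vit (−2.89) and Srpx2, a secreted sushi-repeat protein gene (−2.72). Dlx1as had 9.85, 10.23 and 9.49 in the proximal mandible and 5.16, 4.63 and 5.54 in the proximal maxilla, and its jaw differences were 1.01 distally and 4.75 proximally. Those of Egr3 were −0.86 and 2.33 and those of Srpx2 −0.24 and 2.48. Between genotypes, the jaw difference at the distal ends was lower in mutants than in controls for Angptl1 (−1.85) and Tgfbi (−1.28).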

How the results depend on the processing

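The count of 1129 genes between the distal ends was 2023 in a fit of the 12 control arrays, 4981 with array weights and 412 with a minimum of 2-fold, and 389 to 1109 with 1 array left out. The corresponding counts for the test between ends (514) were 1035, 2002 and 288 to 395, and the share of higher values, 27.6%, became 38.7% with the 12 controls, 38.5% with array weights, 36.8% with the block, 37.5% after quantile normalization (218 higher and 364 lower), 23.4% with arrays centred on their medians, and 16.3% to 29.4% with 1 array left out (lowest without maxilla 2). The 2 genes between genotypes became 51 with array weights and 1 to 2 with 1 array left out. A fit of only the 6 arrays compared called 953 genes between the distal ends, of which 682 were among the 1129. The cause of these shifts was not tested, but leaving out an array also leaves fewer samples. The labels do not say that replicate numbers pair the samples. Deviations of same-numbered mandible and maxilla arrays correlated at 0.22, 0.02 and 0.32, while sex-linked genes had the same pattern over the numbers in both jaws, a hint of pairing from the data and not the design. With replicate number as a block the counts were 2545, 1216 and 3, and the 2545 held all 1129 genes. Synpo2, a muscle actin-binding protein gene that was not called (−0.16), had 0.63 as the mean of its probe sets and 1.88 on its most variable one. Of the 206 named genes called between the distal ends, 82 were called in all alternatives in which they were tested. Genes dim in a group, as some muscle genes in the maxilla and some nasal genes in the mandible, may have differences limited by background, which was not measured.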

Other observations

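The replicate numbers followed a shared pattern in sex-linked genes. Xist, the RNA of the inactive X chromosome, had 13.3, 12.6 and 6.56 in distal mandible 1, 2 and 3 and 13.4, 13.0 and 6.66 in distal maxilla 1, 2 and 3. The Y-linked gene Eif2s3y had 7.47, 9.55 and 10.2 in the mandible and 7.94, 9.20 and 10.0 in the maxilla. The number 2 arrays of both jaws thus had high values of both genes, and both jaws held the same pattern over the 3 numbers.

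Apart from the lists, 2 of 3 Gsta genes, glutathione transferases of epithelia, fell in the distal mandible, Gsta2 (−3.12 ± 0.65) and Gsta3 (−3.04 ± 0.65) (limma, adjusted p = 0.00784 and 0.00942). Tmprss11a, a membrane serine protease gene, had 8.80, 8.40 and 9.79 in the mandible and 5.62, 6.89 and 6.43 in the maxilla, and rose by 2.69 ± 0.41 (adjusted p = 0.00111). These genes were chosen after their values were seen.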
